A study of Homo sapiens with 6 samples.

Results

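The genes described here are 9 transcription factors linked with self-renewal of blood stem cells: HLF, MECOM, MEIS1, MEIS2, PBX3, PRDM16, BCL11A, IKZF1 and IKZF2. They were chosen by symbol from the 29436 gene symbols of a count table of hemogenic endothelium, the endothelial population from which blood cells arise. All 9 were in the table. The cells came from H1, a human embryonic stem cell line, which was differentiated on AGM-S3 stroma and sorted on day 8 as CD34+CD43-KDR+CD144+. In 3 libraries the cells had received no agent (untreated), and in 3 they had received 100 µg/ml alpha lipoic acid (ALA), an antioxidant and enzyme cofactor, in the inducing medium. Each library was amplified polyA cDNA of 1000 cells. Only 1 cell line was used, and the labels do not say whether the libraries came from separate cultures, so p-values reflect library-to-library spread alone, and that spread may be technical.

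Blood stem cells keep dividing without maturing through a set of transcription factors that act together with HOX proteins. MEIS and PBX proteins belong to the TALE class of homeodomain proteins, bind DNA as partners of each other and of HOX proteins, and are also used widely in embryonic mesoderm, heart and nervous system. MECOM and PRDM16 are related zinc finger proteins with a PR domain, HLF is a basic leucine zipper protein of the PAR group whose expression marks human blood stem cells, and BCL11A and the Ikaros proteins IKZF1 and IKZF2 are zinc finger proteins of stem and lymphoid cells that recruit the NuRD deacetylase complex. Hemogenic endothelium is an earlier stage, in which part of this set is already transcribed and part is not.

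Total counts per library were 30041494 to 32034433 in the untreated and 31404734 to 41351951 in the lipoic acid group. Over 99% of nonzero counts were even numbers in all lipoic acid libraries and in untreated replicate 1 (99.13% to 99.34%), against 52.01% and 51.97% in untreated replicates 2 and 3. The comparison was therefore repeated in those 4 libraries, a fit with a single control whose variation is taken from the other libraries. The share of counts on mitochondrially encoded genes also separated the groups, at 2.45% to 2.82% untreated and 4.39% to 5.02% with lipoic acid. With those genes left out of the fit the same 4 members were called as with them, at adjusted p of 0.00884 (MECOM), 0.000641 (MEIS2), 0.0407 (PBX3) and 0.0191 (IKZF2). Endothelial markers stood high in every library, with a summed level over 10 genes of 9948 to 10093 CPM untreated and 9049 to 9381 CPM with lipoic acid, where CPM is a gene's count rate relative to the TMM-adjusted total of its library. PTPRC and SPN, which encode the blood cell surface proteins CD45 and CD43, had no count in any library. Of 13780 tested genes 47.4% were called at an adjusted p under 0.05 (24.2% higher and 23.3% lower), so a call on a single gene is common in this comparison.

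RefSeq start regions were found for 8 of the 9 genes, with 19 windows in all (GRCh38.p14, 250 bases before to 50 after a start). PRDM16 was not matched. The windows were searched on both strands for TGACAG (a MEIS core), TTACGTAA (a PAR leucine zipper site, the kind HLF binds) and TGTGGT (a RUNX core). These do not overlap one another, and a match describes letters and not a bound site. The 250 bases before a start are shown for the genes on which the results turn: the MEIS1 and MEIS2 pair, whose count ratio separated the groups, and 3 called genes with a match (MECOM at a start inside the locus, PBX3 and IKZF2). Matches are in capitals, and sequences run 5′ to 3′ on the gene's strand.
MEIS1, chr2:66434875-66435124, plus strand: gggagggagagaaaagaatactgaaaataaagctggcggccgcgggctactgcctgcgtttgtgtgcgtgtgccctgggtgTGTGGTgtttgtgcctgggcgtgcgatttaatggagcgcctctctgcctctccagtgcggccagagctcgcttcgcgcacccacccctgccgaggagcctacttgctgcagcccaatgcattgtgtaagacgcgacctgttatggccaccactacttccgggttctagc
MEIS2, chr15:37099107-37099356, minus strand: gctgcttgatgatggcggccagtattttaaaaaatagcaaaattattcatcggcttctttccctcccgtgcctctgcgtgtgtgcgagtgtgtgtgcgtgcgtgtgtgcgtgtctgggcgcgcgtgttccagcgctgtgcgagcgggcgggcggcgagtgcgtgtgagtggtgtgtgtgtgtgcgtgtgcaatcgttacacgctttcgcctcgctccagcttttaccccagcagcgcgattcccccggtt
MECOM, chr3:169147472-169147721, minus strand: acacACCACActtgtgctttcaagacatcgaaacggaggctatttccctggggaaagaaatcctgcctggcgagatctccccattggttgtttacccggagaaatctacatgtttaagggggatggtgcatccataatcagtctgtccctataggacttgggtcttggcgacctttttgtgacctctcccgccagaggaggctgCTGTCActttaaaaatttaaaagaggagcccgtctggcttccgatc
PBX3, chr9:125747933-125748182, plus strand: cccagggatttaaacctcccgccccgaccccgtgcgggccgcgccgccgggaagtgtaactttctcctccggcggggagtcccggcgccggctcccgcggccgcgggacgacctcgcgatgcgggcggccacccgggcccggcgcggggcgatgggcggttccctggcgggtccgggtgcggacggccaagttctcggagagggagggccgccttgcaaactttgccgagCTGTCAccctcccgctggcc
IKZF2, chr2:213152457-213152706, minus strand: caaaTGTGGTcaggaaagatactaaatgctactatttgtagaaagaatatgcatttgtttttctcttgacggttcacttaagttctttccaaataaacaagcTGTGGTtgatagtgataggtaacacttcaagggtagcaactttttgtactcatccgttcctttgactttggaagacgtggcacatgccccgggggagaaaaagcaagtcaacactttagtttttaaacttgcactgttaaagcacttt

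The MEIS1 window held TGTGGT at position -169 from the start, and the IKZF2 window held it at -246 and -148. The MECOM window held the reverse complement of TGTGGT at -246 and of TGACAG at -46, and the PBX3 window the reverse complement of TGACAG at -20. The MEIS2 windows held none of the 3 motifs. Of the 19 windows, 5 held TGTGGT, in 5 genes (BCL11A, MEIS1, IKZF2, MECOM and IKZF1), against 13.1% of 35116 windows of all genes. TGACAG was in 2 of the 19 windows against 15.8% of all, and TTACGTAA in 0 of 19 against 0.1% of all. The windows ranged from 35.3% GC (an IKZF1 start) to 76.0% GC (PBX3), with a median of 54.7% against 58.7% over all windows.

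The 9 genes fell into 3 ranges of expression. MECOM, MEIS1, MEIS2 and PBX3 had means above 50 CPM, BCL11A, IKZF2, PRDM16 and IKZF1 had means below 5 CPM in both groups, and HLF was at 0. Of the 8 tested members, 2 were called higher with lipoic acid (MEIS2 and PBX3), 2 lower (MECOM and IKZF2) and 4 were not called. That is 4 of 8, beside 47.4% of all tested genes, and their median log2 fold change was 0.03 beside -0.01 over all. The values of the 2 groups did not overlap for 6 of the 8, beside 59.1% of all tested genes. In 3 of them lipoic acid lay higher (MEIS2, PBX3 and IKZF1; 30.4% of all tested genes) and in 3 lower (MECOM, MEIS1 and IKZF2; 28.8% of all). The median absolute log2 fold change was 0.39 for the members and 0.35 for all tested genes. IKZF1 passed the filter on low counts only through the lipoic acid group, in which it was higher, so the counts over tested members are descriptions.

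**Figure D1:**
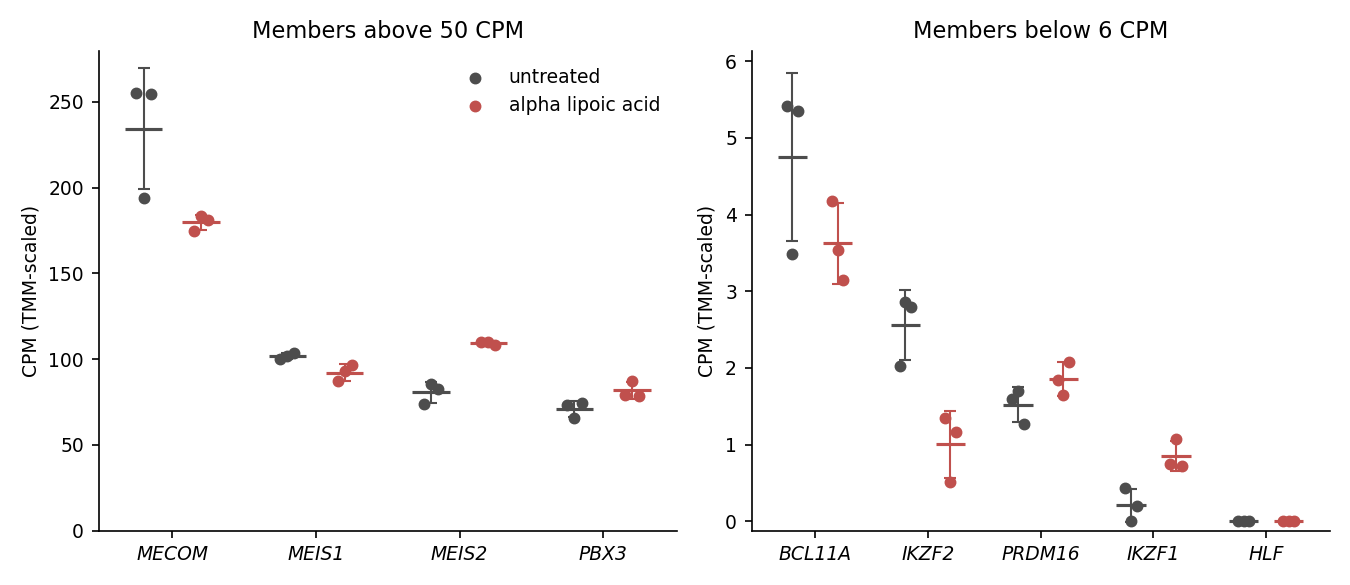
Level of each member in every library, in CPM on TMM-scaled library sizes (y axis, linear), with points for the 3 libraries of a group, horizontal bars for the mean and error bars for the SD; the left panel holds the members above 50 CPM and the right panel the others. MEIS2 lies at 108 to 110.3 CPM with lipoic acid, above all untreated libraries (73.6 to 85.5 CPM), IKZF2 lies lower with lipoic acid, and HLF is at 0 throughout.

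HLF (ENSG00000108924, chromosome 17, 55265012 to 55325065, GRCh38) had no count in any of the 6 libraries. Over a group, 0 counts allow up to 0.0393 CPM in the untreated and 0.0530 CPM in the lipoic acid group, with even counts halved and a limit of 3 counts. Because amplified reads are not independent molecules, these limits cover counting error only. Other genes of its leucine zipper group were present. DBP, another PAR factor, had 0.822 ± 0.123 CPM untreated and 1.21 ± 0.382 CPM with lipoic acid (SD, n = 3 each, here and below). TEF, the remaining PAR factor, had 3.62 ± 0.374 and 3.93 ± 0.602 CPM, and neither was called (edgeR adjusted p = 0.278 and 0.687). NFIL3, a repressor that binds the same sites, rose 1.29-fold from 35.0 ± 3.4 to 45.1 ± 2.0 CPM (edgeR adjusted p = 0.00607).

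MECOM (ENSG00000085276, chromosome 3, 169083499 to 169663618), a nuclear factor needed for blood stem cell maintenance, was the most abundant member and fell. Its levels were 255.1, 193.9 and 254.5 CPM in untreated replicates 1 to 3 and 175.0, 183.6 and 181.0 CPM in lipoic acid replicates 1 to 3. The groups did not overlap, although untreated replicate 2 lay within 10.3 CPM of the highest lipoic acid library. The fitted fall was 1.30-fold (log2 fold change -0.38 ± 0.10 SE, edgeR adjusted p = 0.00866), and without untreated replicate 2 the log2 fold change was -0.50. It was smaller and nearer the threshold without untreated replicate 1 (-0.308, edgeR adjusted p = 0.0346) or 3 (-0.315, 0.0422). MECOM gives a long form that carries the PR domain, from the start at the far end of the locus, and shorter forms from starts inside it, among them the one shown above. The counts are per gene symbol and do not separate these forms.

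PRDM16 (ENSG00000142611, chromosome 1, 3069168 to 3438621), the closest relative of MECOM and also a factor of stem cell maintenance, was far lower. It had 1.60, 1.70 and 1.26 CPM in untreated and 1.84, 1.65 and 2.08 CPM in lipoic acid replicates 1 to 3. The groups overlapped, and the difference was not called (log2 fold change 0.29 ± 0.31 SE, edgeR adjusted p = 0.469), nor was it when only the 4 even-count libraries were fitted (0.22, 0.722). Within each library the log2 ratio of MECOM to PRDM16 counts was 7.25 ± 0.41 untreated and 6.59 ± 0.18 with lipoic acid, a difference of -0.66. The groups did not overlap, but untreated replicate 2 (6.82) lay close to lipoic acid replicate 2 (6.79). PRDM16 had 38 to 86 counts a library. The difference was -0.469 without untreated replicate 3 and -0.875 without untreated replicate 2. An exact two-sided permutation test of 3 against 3 libraries cannot go below p = 0.1, and this ratio reached 0.1, as did each of the 4 ratios computed (0.1 after adjustment over the 4), of which 3 are given here. Of 9 other tested PRDM genes, 2 rose, 1 fell and 6 did not pass (33.3% called, beside 47.4% of all tested genes). PRDM2 rose 1.35-fold to 71.0 ± 4.44 CPM and PRDM1, a transcriptional repressor used in lymphoid and germ cell differentiation, fell 1.29-fold to 105 ± 1.22 CPM (edgeR adjusted p = 0.00133 and 0.00117).

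MEIS1 and MEIS2 are close relatives with a shared type of DNA binding domain. MEIS2 rose, while MEIS1 values were lower without passing the test. MEIS1 (ENSG00000143995, chromosome 2, 66433452 to 66573869), the MEIS gene of blood stem cells and of MLL-rearranged leukaemia, had 100.2, 101.6 and 103.8 CPM in untreated and 87.1, 92.9 and 96.7 CPM in lipoic acid replicates 1 to 3. Every lipoic acid library lay below every untreated one, by 3.53 CPM at the nearest. The difference did not pass (log2 fold change -0.14 ± 0.06 SE, edgeR adjusted p = 0.0865). It passed after removal of a GC content and length trend from each library (MEIS1 log2 fold change -0.25, adjusted p = 0.00394; 0.00688 with the replicate number as a block as well) and with limma voom (0.0478).

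MEIS2 (ENSG00000134138, chromosome 15, 36889204 to 37101299), used in heart, limb and brain as well as in vessels, rose. It had 73.6, 85.5 and 82.7 CPM in untreated and 110.3, 110.1 and 108.2 CPM in lipoic acid replicates 1 to 3. The 3 lipoic acid libraries lay within 2.1 CPM of each other and 22.7 CPM above the highest untreated one. The fitted rise was 1.36-fold (log2 fold change 0.44 ± 0.07 SE, edgeR adjusted p = 0.000685), and this call held in all 20 other settings at that threshold (adjusted p 1.46e-07 to 0.00655). An antisense gene, AC078909.1, covers 4.0% of the exonic length of MEIS2, as MEIS1-AS2 does for MEIS1, and strand use in the counting was not given in the sources used here. MEIS1-AS2 itself had 0.0998 to 0.831 CPM in the 6 libraries.

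The ratio of both MEIS genes needs no scaling between libraries. The log2 ratio of MEIS1 to MEIS2 counts was 0.44, 0.25 and 0.33 in untreated and -0.34, -0.25 and -0.16 in lipoic acid replicates 1 to 3. All untreated libraries held more MEIS1 than MEIS2 counts and all lipoic acid libraries fewer, a difference of -0.59 (exact permutation p = 0.1, the smallest possible). MEIS3, the third MEIS gene, had 18.0 ± 1.99 and 18.4 ± 1.87 CPM and was not called (edgeR adjusted p = 0.837).

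PBX3 (ENSG00000167081, chromosome 9, 125747345 to 125967377), a partner of MEIS and HOX proteins, rose slightly. It had 73.2, 65.4 and 74.3 CPM in untreated and 79.2, 87.5 and 78.8 CPM in lipoic acid replicates 1 to 3. The groups were separated by 4.49 CPM, less than the SD of either group (4.84 and 4.95 CPM). The fitted rise of 1.15-fold was near the threshold (log2 fold change 0.21 ± 0.08 SE, edgeR adjusted p = 0.0455). The call was lost without untreated replicate 2 (0.09) or lipoic acid replicates 1 (0.0652), 2 (0.138) or 3 (0.0663). It was also lost with limma voom (0.0759), with the replicate block (0.066), after removal of the GC content and length trend (0.115) and with both of the last 2 (0.153). In the 4 libraries of even counts the log2 fold change of PBX3 was 0.162.

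Relatives of the MEIS and PBX genes went in both directions. Of the others in the TALE class, 7 of 15 genes were tested, of which 1 rose and 3 fell (57.1% called, beside 47.4% of all tested genes). PKNOX2, a relative of MEIS that also pairs with PBX proteins, fell 2.91-fold from 2.46 ± 0.0637 to 0.846 ± 0.197 CPM (edgeR adjusted p = 0.00397), while PKNOX1, at 31.5 ± 0.837 and 35.2 ± 3.21 CPM, was not called (0.154). TGIF1 and TGIF2, TALE repressors that bind SMAD proteins, went in opposite directions. TGIF1 rose 1.27-fold (adjusted p = 0.00838), a call lost after removal of the GC content and length trend, and TGIF2 fell 1.40-fold (0.000585). PBX4 was not called (0.550 ± 0.349 and 0.186 ± 0.185 CPM, edgeR adjusted p = 0.143). PBX2 had at most 0.123 CPM, a value that is uncertain because PBX2 lies in the major histocompatibility region, of which hg38 holds alternate copies, and how multiply aligned reads were treated was not given in the sources used here.

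**Figure D2:**
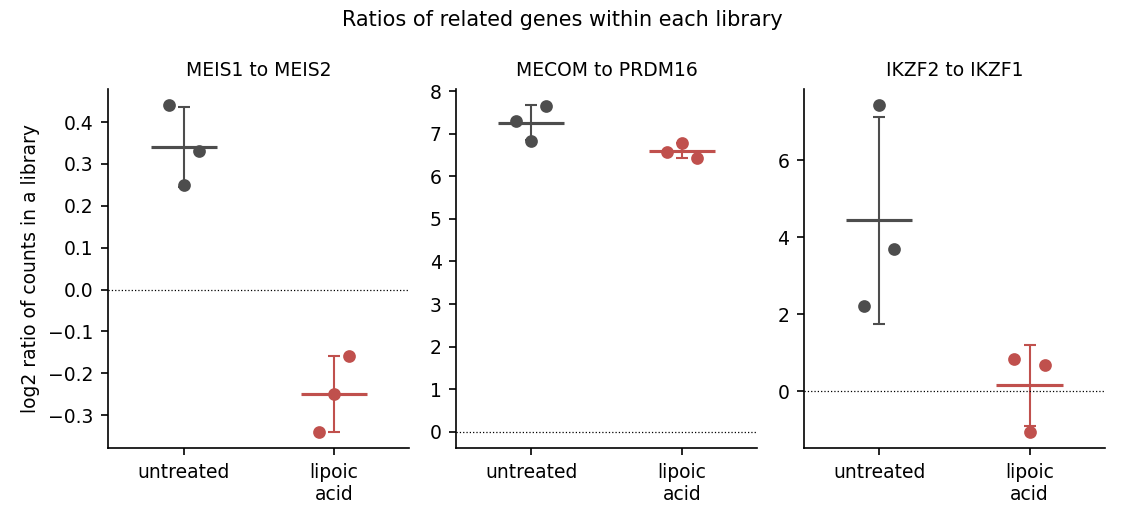
Log2 ratio of counts of 2 related genes within each library (y axis, 1 panel per ratio, each with its own scale), by group (x axis), with points for libraries, horizontal bars for means and error bars for the SD (n = 3). The groups do not overlap in any of the 3 panels, and MEIS1 to MEIS2 has means of 0.34 and -0.25; the dotted line marks equal counts, which are not equal levels because the genes differ in length.

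IKZF2 (ENSG00000030419, chromosome 2, 212999691 to 213152427) encodes Helios, an Ikaros protein of stem cells and T cells, and it fell most among the called members. It had 66, 86 and 84 counts in untreated and 54, 16 and 48 in lipoic acid replicates 1 to 3, or 2.03, 2.86 and 2.79 CPM against 1.34, 0.506 and 1.16 CPM. The groups did not overlap, and lipoic acid replicate 2 was the lowest. The fitted fall was 2.52-fold (log2 fold change -1.34 ± 0.40 SE, edgeR adjusted p = 0.0192). The IKZF2 call was lost without untreated replicate 3 (0.0653) and in the 4 libraries of even counts (log2 fold change -1.0, adjusted p = 0.186).

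IKZF1 (ENSG00000185811, chromosome 7, 50304068 to 50405101) encodes Ikaros, which is needed for lymphoid cells and is active from the stem cell stage on. It had 14, 0 and 6 counts in untreated and 30, 34 and 30 in lipoic acid replicates 1 to 3. In CPM these were 0.431, 0 and 0.200 against 0.747, 1.08 and 0.725, so every lipoic acid library lay above every untreated one. With even counts halved, the exact 95% Poisson interval of untreated replicate 1 (0.173 to 0.887 CPM) overlapped those of all 3 lipoic acid libraries (0.406 to 1.20 CPM in replicate 3), and such intervals cover counting error only. The difference did not pass (log2 fold change 1.97 ± 0.80 SE, edgeR adjusted p = 0.0642). The log2 fold change of IKZF1 was 3.05 without untreated replicate 1 (adjusted p = 0.0297), 1.41 without untreated replicate 2 (0.0656) and 0.97 in the 4 libraries of even counts (0.34), and it passed with limma voom (0.0292) and with counts halved in those 4 (0.0435) or in all libraries (0.0373).

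The log2 ratio of IKZF2 to IKZF1 counts was 2.20, 7.43 and 3.70 in untreated and 0.84, -1.06 and 0.67 in lipoic acid replicates 1 to 3. The groups did not overlap, and the difference of -4.30 was -2.80 without untreated replicate 2, in which IKZF1 had no count, and -2.88 with 5 in place of 0.5 counts added to each gene. IKZF3, a lymphoid Ikaros gene, had no count in any library. IKZF4 had 2.47 ± 0.484 and 2.44 ± 0.0462 CPM and was not called (edgeR adjusted p = 0.96), and IKZF5, a distant family member, rose 1.61-fold from 14.4 ± 1.63 to 23.2 ± 1.87 CPM (0.000955).

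BCL11A (ENSG00000119866, chromosome 2, 60450520 to 60555154), a factor of stem and lymphoid cells and the repressor of fetal globin genes in red cells, was not called. It had 5.41, 3.49 and 5.35 CPM in untreated and 4.18, 3.54 and 3.14 CPM in lipoic acid replicates 1 to 3. The groups overlapped through untreated replicate 2 alone (log2 fold change -0.39 ± 0.24 SE, edgeR adjusted p = 0.205). Without untreated replicate 2 BCL11A was called lower (log2 fold change -0.57, adjusted p = 0.0441), as it was with limma voom (-0.54, 0.0319), but not in the 4 libraries of even counts (-0.58, 0.125). BCL11B, its lymphoid relative, had 0.947 ± 0.408 and 0.667 ± 0.135 CPM and was not called (0.41).

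**Figure D3:**
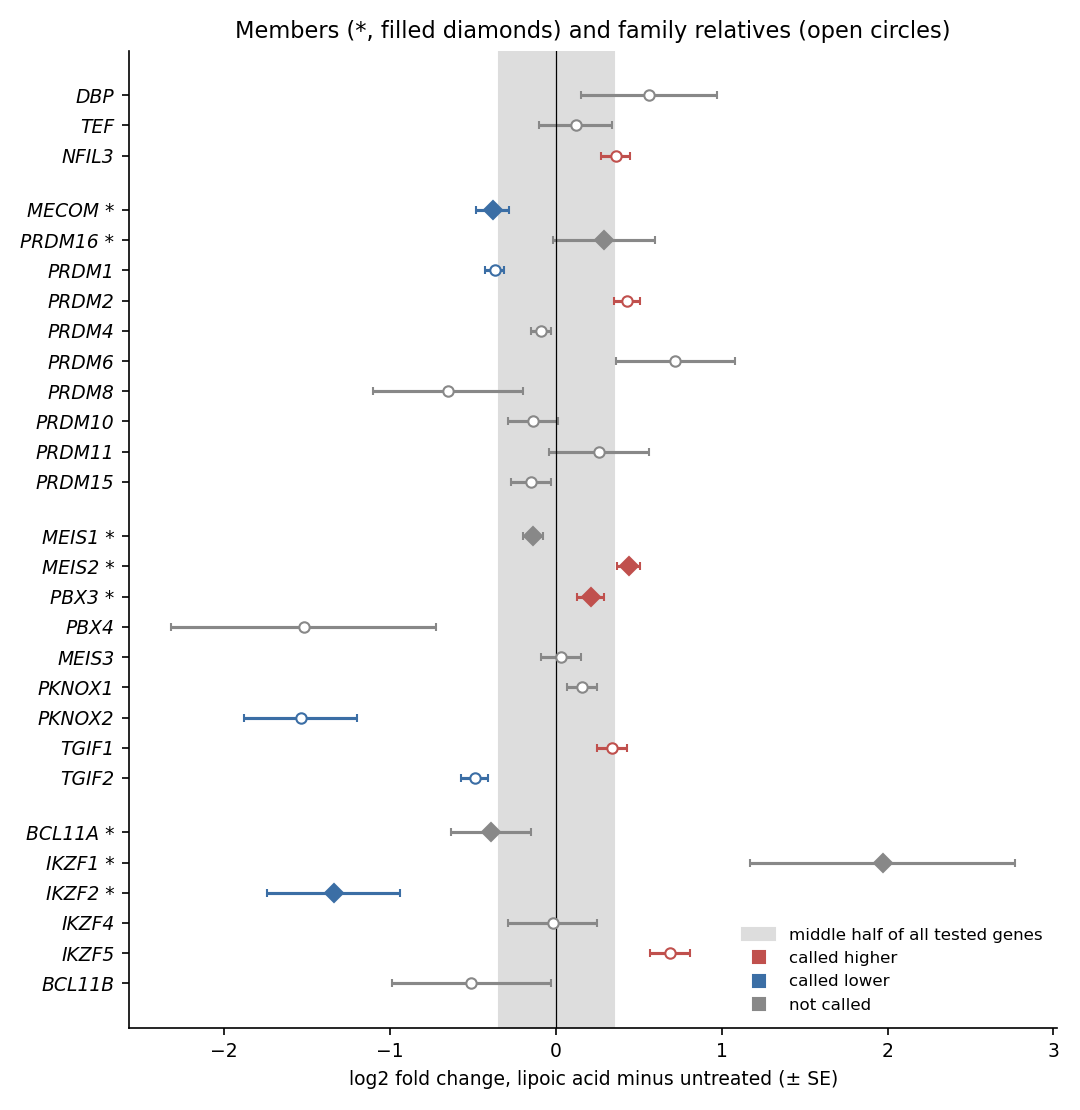
Log2 fold change of lipoic acid minus untreated with its SE (x axis) for the 8 tested members (filled diamonds, names marked *) and tested genes of their families (open circles); red was called higher, blue lower and grey not called, and the grey band spans the 25th to 75th percentile of all tested genes (-0.34 to 0.35). MECOM, IKZF2, PKNOX2 and TGIF2 lie to the left among the called genes, and MEIS2, PBX3, TGIF1 and IKZF5 to the right.

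Levels can be compared between genes only per length, here as CPM per kb of all annotated exons. Untreated, the order was MECOM (25.8 ± 3.86), PBX3 (15.7 ± 1.07), MEIS1 (9.32 ± 0.165), MEIS2 (7.47 ± 0.575), IKZF2 (0.209 ± 0.0377), BCL11A (0.187 ± 0.0430), PRDM16 (0.156 ± 0.0233) and IKZF1 (0.0192 ± 0.0197). The ranges of the upper 4 did not overlap one another, while those of IKZF2, BCL11A and PRDM16 did. With lipoic acid MECOM (19.8 ± 0.487) and PBX3 (18.1 ± 1.09) overlapped, and MEIS2 (10.1 ± 0.108) stood above MEIS1 (8.43 ± 0.443). PRDM16 (0.190 ± 0.0222), BCL11A (0.143 ± 0.0207), IKZF2 (0.0820 ± 0.0360) and IKZF1 (0.0777 ± 0.0180) followed, and only the last pair of these overlapped. With the longest transcript as length BCL11A, whose annotated exons are the longest in sum, led the lower 4 in both groups.

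The genes whose profile over the 6 libraries lay closest to MEIS2, by Euclidean distance of centred log2 CPM among 9789 genes averaging 5 CPM or more, were PELI2, SIAH2 and USP1 (distances of 0.068, 0.070 and 0.078). PELI2 rose from a mean of 52.2 to 72.6 CPM, SIAH2 from 44.5 to 60.8 and USP1 from 54.6 to 75.7. Those closest to IKZF2 were EMP2, FLVCR2 and PYROXD1, at the much larger distances of 0.557, 0.575 and 0.591. FLVCR2 went from a mean of 9.68 to 3.71 CPM.

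Other genes linked with blood stem cells went in both directions. In a list of 22, of which 20 were tested, 10 rose and 4 fell (70.0% called, beside 47.4% of all tested genes). In this list 4 genes, SPINK2 and GFI1B among them, met the filter on low counts in all lipoic acid but not in all untreated libraries, and of the other 16 tested 6 rose and 4 fell. PROM1, which encodes CD133, rose 2.48-fold from 24.4 ± 5.51 to 60.7 ± 7.19 CPM (edgeR adjusted p = 0.00011). GFI1B, a transcriptional repressor used in the blood transition and in platelet precursors, went from 0.106 ± 0.0952 to 2.64 ± 0.367 CPM (0.000302). SPINK2, a stem cell marker, had 3 counts in all untreated libraries together and 108 in all lipoic acid libraries after halving of even counts, a ratio of 48.6 with a 95% counting interval of 16.2 to 239.5 (exact binomial). THY1, which encodes CD90, fell 1.51-fold from 370 ± 26.2 to 245 ± 19.2 CPM, and THY1 is also a gene of mesenchymal cells.

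Genes described as regulated by the members did not share a direction. Of 14 listed 8 were tested, of which 2 rose and 4 fell, beside 24.2% higher and 23.3% lower over all tested genes. The median log2 fold change of these 8 was -0.20, beside -0.01 over all tested genes. HIF1A, a hypoxia factor that MEIS1 activates in blood stem cells, rose 1.43-fold from 499 ± 16.5 to 714 ± 37.9 CPM. PPARG, with which PRDM16 acts in brown fat, fell 2.28-fold. MYB, which definitive blood cells need, was 3.03-fold lower at 2.83 ± 0.243 CPM. FLT3, a receptor that MEIS1 regulates, had 0.0615 CPM in untreated replicate 1 and no count in the other libraries, and the globin genes HBG1 and HBE1 had none in any. How multiply aligned reads were treated was not given, so the lack of counts for a globin gene does not show its absence.

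Cofactors of these proteins went in both directions. Of 12 tested NuRD subunits 3 rose and 2 fell (41.7% called, beside 47.4% of all tested genes). CHD4, the remodelling enzyme, was 1.28-fold and MTA3 1.17-fold higher (MTA3 was not called without lipoic acid replicate 3). The methyl-CpG binding subunits MBD3 and MBD2 were 1.36-fold and 1.23-fold lower. Of 12 corepressors of the CtBP, SIN3 and methyltransferase groups 3 rose and 0 fell at the threshold. These were CTBP2, a partner of MECOM and PRDM16 (1.21-fold), NCOR1 (1.25-fold) and KDM1A (1.18-fold). Of 8 genes of the MLL and menin group, which maintains MEIS1 and HOXA transcription in leukaemia, 4 rose and 1 fell (62.5% called). AFF1 was 1.26-fold, MLLT1 1.25-fold, AFF4 1.26-fold and MLLT3 1.21-fold higher. Each of these 4 calls was lost in 1 to 4 of 20 other settings, among them, for AFF4, the fits without lipoic acid replicate 1 or 3 and, for MLLT1 and MLLT3, the fit without lipoic acid replicate 2.

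Some markers of other cell types also differed between the groups. In sorted populations more cells of a type and more RNA per cell cannot be told apart. Over all tested genes 24.2% were called higher and 23.3% lower. Of 10 tested endoderm and epithelial markers 9 rose and 0 fell, and their summed level was 242 to 268 CPM untreated and 541 to 582 CPM with lipoic acid (2 of the 10, FOXA2 and CDH1, met the filter only in the lipoic acid group). AFP, fetal alpha-fetoprotein, had 4.74 to 7.52 and 50.5 to 77.5 CPM. Of 10 tested endothelial markers 5 fell and 2 rose, with PECAM1 1.27-fold and ESAM 1.60-fold lower. Of 4 tested megakaryocytic markers 3 rose, with a summed level of 6.19 to 7.38 CPM untreated and 26.9 to 29.5 CPM with lipoic acid. Most of that sum was SELP (5.26 ± 0.0350 and 21.3 ± 0.859 CPM), while PPBP, GP1BB and TUBB1 were at 0 in every library. PF4, GP1BA and ITGA2B, 3 of the 4 tested, met the filter only in the lipoic acid group. The ITGA2B call (edgeR adjusted p = 0.0421) held in 15 of 20 other settings. Of 5 tested blood markers 0 were higher and 1 was lower (summed 321 to 344 and 272 to 301 CPM). The one that fell, LAPTM5, made up most of that sum (290 ± 7.31 and 244 ± 14.7 CPM). PTPRC, SPN, ITGAM and MPO were at 0. Of 2 tested erythroid markers 1 rose (GYPB, which met the filter only in the lipoic acid group), and the summed level was 74.6 to 87.3 and 71.1 to 94.9 CPM. HBA1, HBA2 and AHSP were at 0, for HBA1 and HBA2 with the same limit on multiply aligned reads as for HBG1. The part of these markers in the values of MEIS2, PBX3, MECOM, IKZF1 and IKZF2 was not tested.

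**Figure D4:**
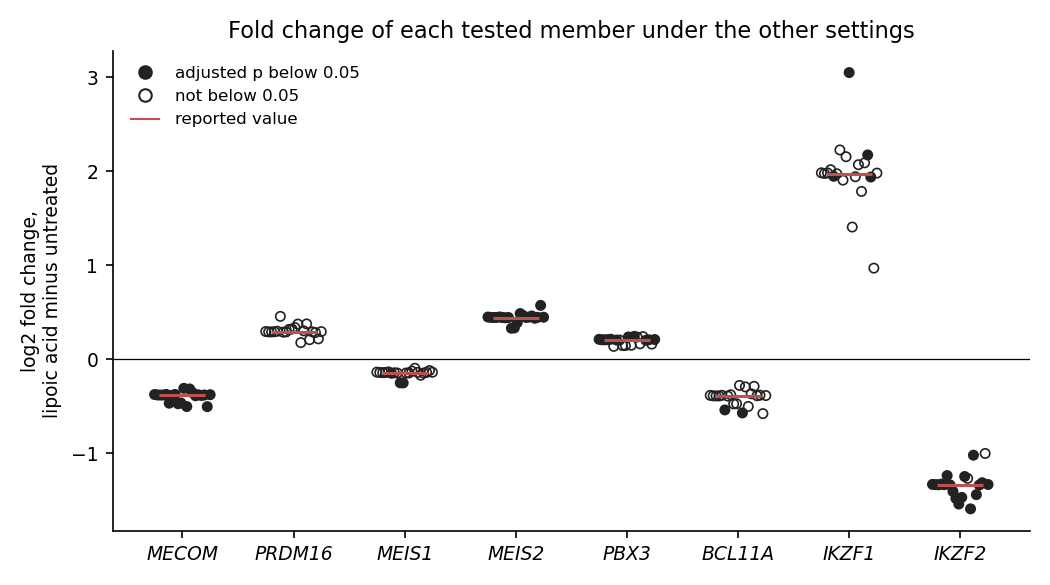
Log2 fold change of lipoic acid minus untreated (y axis) of each tested member under each of the other settings (points, 20 per gene and 19 for IKZF1), filled where the adjusted p was below 0.05 and open where it was not; the red bar is the value in the text. MECOM and MEIS2 are filled throughout, PBX3 in 11 of 20 and IKZF2 in 18 of 20, and no member crosses 0.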

How the data were processed

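The deposited table holds raw counts per gene symbol for 6 libraries. The submitters' processing notes name hg38, HISAT2, featureCounts and DESeq2 as build and tools. Annotation, strand setting and treatment of multiply aligned reads: not given in the sources used here. Groups were taken from the sample titles (3 untreated, 3 lipoic acid).

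The software was edgeR 4.0.16, limma 3.58.1 and DESeq2 1.42.0, run in R 4.3.3. The default filterByExpr step left 13780 of 29436 genes, libraries were scaled by TMM, and the groups were compared by the quasi-likelihood test of edgeR without covariates. Benjamini-Hochberg adjustment covered all tested genes, and an adjusted p under 0.05 was a call. The SE of a log2 fold change is its size divided by the square root of F. The script was tested on simulated data. Ratios within a library were compared by exact permutation tests. Positions, exon lengths and overlaps came from GENCODE release 29 (99.36% of symbols found) and start regions from RefSeq.

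The members, gene lists and tests were chosen with earlier results of these data known. Named genes are the 9 members, their tested family relatives, up to 4 called genes of lowest p per list (of the list of regulated genes FLT3, HBG1 and HBE1, and of the marker lists the genes at 0, fell outside this rule and were named after their values were seen), annotated overlapping genes and the 3 genes of closest profile to MEIS2 and IKZF2. Some genes under this rule are not reported here, and counts over lists include them. Alternatives were other scaling, filters, tests and thresholds, a replicate block, a GC content and length trend, mitochondrially encoded genes removed, each library left out, and halved or restricted counts for even-count libraries.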

Additional observations from a re-analysis of the deposited data

How the results depend on the processing

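The 8 tested members kept their direction in every setting run. At the 0.05 threshold MECOM and MEIS2 kept their calls in all 20 other settings, IKZF2 in 18 and PBX3 in 11. Among those not called, PRDM16 passed in 0 of 20, BCL11A in 2, MEIS1 in 3 and IKZF1 in 4 of 19 (IKZF1 had no value under a filter of 1 CPM). The counts of 2 members higher and 2 lower became 4 lower with limma voom and 1 higher with the replicate block. After removal of a GC content and length trend 1 was higher and 3 were lower, and the same held with the replicate block added. With counts halved in the 4 libraries of even counts or in all libraries, 3 were higher and 2 lower. In the 4 libraries of even counts 1 was higher and 1 lower. With 1 library left out, 1 to 3 were higher and 1 to 3 lower. Tested against a fold change of 2 instead of no change (edgeR's glmTreat), 0 members were higher and 0 lower (IKZF2, 2.52-fold lower, had an adjusted p of 0.665), and over all genes 489 and 274, against 3329 and 3205 tested against no change. Same-numbered libraries correlated at 0.06, 0.06 and 0.078 in their deviations from the group means, each best with its own number (-0.058 to 0.009 between unlike numbers). The labels do not say what a number shares, and the main fit did not pair the libraries. With the replicate block 3354 genes were higher and 3203 lower, and PBX3 was not called (edgeR adjusted p = 0.066). With the longest transcript as length, the CPM per kb untreated and with lipoic acid were 40.9 and 31.4 for MECOM, 24.5 and 28.2 for PBX3, 19.9 and 18.0 for MEIS1, 16.7 and 22.7 for MEIS2 and 0.625 and 0.477 for BCL11A, with 0.274 for IKZF2 untreated and 0.214 for PRDM16 and 0.135 for IKZF1 with lipoic acid. With a library left out the log2 difference of MEIS1 to MEIS2 was -0.64 to -0.54 and that of IKZF2 to IKZF1 -5.42 to -2.80. At this depth the 0 counts of HLF give only an upper limit, and IKZF1 rests on 0 to 34 counts a library. For the other changes of call the cause was not tested.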

Other observations

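Marker lists of cell types in which MEIS, PBX and PRDM genes are also used gave the following values, beside 24.2% higher and 23.3% lower over all tested genes. Of 4 tested neural markers 2 fell and 1 rose: STMN2, a regulator of neuronal microtubules, fell 1.55-fold to 41.8 ± 1.68 CPM, NES, the intermediate filament nestin, 1.40-fold to 147 ± 11.3 CPM, and MAP2 rose 2.91-fold to 6.56 ± 0.336 CPM. Of 9 tested mesenchymal markers 4 fell and 0 rose, with LUM 1.43-fold and ACTA2 1.33-fold lower. The number lower was 2 to 7 over the other settings, with PDGFRB not called without untreated replicates 1 or 3 or lipoic acid replicates 2 or 3, and COL1A1 not without lipoic acid replicate 2. Of 4 tested cardiac markers 2 rose and 1 fell. Those that rose were near the threshold (ACTN2 and TTN, edgeR adjusted p = 0.0437 and 0.0473), and 0 to 2 were higher over the other settings, with ACTN2 not called when any 1 library was left out and TTN not without untreated replicate 3 or any 1 lipoic acid library. TNNT2, cardiac troponin T, fell from 1.44 ± 0.216 to 0.186 ± 0.147 CPM and met the filter on low counts only in the untreated group. Of 4 tested pluripotency markers 2 rose and 1 fell, with LIN28A 1.68-fold and ZFP42 1.91-fold higher. GDF3 fell 3.44-fold from 1.77 ± 0.310 to 0.511 ± 0.115 CPM (edgeR adjusted p = 0.00443). POU5F1 and SOX2 had no count in any library. Since annotation, strand setting and treatment of multiply aligned reads were not given, the lack of counts does not show that these 2 genes were silent.

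Lymphoid markers went in both directions. RAG1, an enzyme of antigen receptor recombination, rose 3.70-fold from 3.25 ± 0.351 to 12.0 ± 1.04 CPM (edgeR adjusted p = 2.24e-05). IL7R, the receptor of interleukin 7, fell 1.44-fold from 49.4 ± 7.33 to 34.3 ± 2.01 CPM (0.00256). CD3E, CD7 and LCK were at 0 in every library.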
